A study of Mus musculus with 11 samples.

Results

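Monoubiquitin is placed on histone H2B by a small set of proteins, and the transcripts of 10 of them were examined here among the 34570 genes counted in mESCs or MEFs. The 10 genes were taken by name. Their values were not part of the rule, but it was set with earlier results of these data known. They are Rnf20 and Rnf40, which encode the E3 ubiquitin ligase, Ube2a and Ube2b, which encode the E2 enzymes that the ligase works with, Wac, which encodes an adaptor of the ligase, and Paf1, Ctr9, Leo1, Cdc73 and Rtf1, which encode subunits of the PAF complex. All 10 are listed for both cell types, and all 10 passed the filter on low counts in every fit.

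The ligase and its E2 enzyme attach ubiquitin to H2B within transcribed genes, and the mark is known to favour methylation of H3K4 and H3K79. The PAF complex travels with elongating RNA polymerase II, where RTF1 engages the E2 enzyme, and WAC is known to bring the ligase to the polymerase. ATXN7L3 works at the opposite end of the cycle, as the adaptor that activates USP22 and related proteases, which take the ubiquitin off again.

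Poly(A)+ RNA was sequenced from mESCs, pluripotent cells of the blastocyst, and from MEFs, the primary fibroblast cultures of the midgestation embryo. The groups were 2 WT (Atxn7l3+/+) and 3 Atxn7l3-/- mESC libraries, and 3 WT and 3 Atxn7l3-/- MEF libraries, all of mixed DBA/2 x C57BL/6 strain. Each line came from its own embryo of a heterozygous intercross, and the null allele was inherited through the germline, so that it was present in every cell. All mESCs were kept, at the end without feeders, in LIF with 1 µM PD0325901 and 3 µM CH99021, and the MEFs were grown from E10.5 embryos after head and gut had been cut away, which leaves a mixture of cell types. The comparisons ask whether cells whose H2B deubiquitinases lack this adaptor alter the transcripts of the enzymes that put ubiquitin on, and whether the 2 cell types start from different levels of them.

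Library totals ran from 34515342 to 49602605 counts, so that each of the 10 genes rested on at least 956 counts in every library. Levels are given as CPM, which are counts scaled to the library total, normalized by TMM over the 11 libraries, and for a fold change, its standard error (SE) and its adjusted p, edgeR's quasi-likelihood test was used with Benjamini-Hochberg adjustment over all genes tested. A gene is said to have risen or fallen when the adjusted p was 0.05 or less. Atxn7l3 checked the labels. In mESCs it stood at 196 and 202 CPM in WT and at 3.33, 1.60 and 0.83 CPM in Atxn7l3-/-, whereas in MEFs it stood at 86.4, 117 and 104 CPM in WT and still at 56.3, 55.4 and 73.3 CPM in the libraries labelled Atxn7l3-/- (log2 fold change -0.74, SE 0.21, adjusted p = 0.071 and 0.023 by DESeq2, and -0.14 with a correction for GC content). These 3 MEF libraries are therefore called labelled Atxn7l3-/- throughout, and every direction given for them depends on that label. The study also examined ATXN7L3 protein and H2B ubiquitin in such cells, which are not analysed here. Other features moved with the groups as well. Summed over 4 Y-linked genes, 2 of the 3 Atxn7l3-/- mESC libraries (replicates 1 and 2) held at most 6.90 CPM and the other 418 CPM, against 146 and 362 CPM in WT, and 1 WT MEF library (replicate 3) held 0.830 CPM against 186 to 534 CPM in the other MEFs. Summed over 4 mesothelial markers, MEFs labelled Atxn7l3-/- held 4455 to 6590 CPM and WT MEFs 13.4 to 35.8 CPM, with none of the 4 at 0 in either group. In the same cells, 5 proliferation markers summed to 732 to 1221 CPM against 387 to 614 CPM and 4 primitive endoderm markers to 225 to 483 CPM against 6.70 to 17.5 CPM, with Sox17 at 0 in the labelled libraries. Of these 4 markers, Gata4 and Gata6 rose, whereas Sox7 fell from a mean of 0.92 to 0.13 CPM (log2 fold change -2.85, adjusted p = 0.034). All 5 proliferation markers were higher by their estimates, Mki67 alone passed the test, and Mcm2 hardly differed (log2 fold change 0.05). In Atxn7l3-/- mESCs, 8 fibroblast markers summed to 271 to 392 CPM against 25.8 and 99.3 CPM in WT, and the proliferation markers to 978 to 1224 CPM against 1343 and 2020 CPM. All 8 fibroblast markers were higher by their estimates, but only Col1a1 passed the test. Col1a1, Col1a2 and Col3a1 had means of 160, 101 and 32.3 CPM in Atxn7l3-/- mESCs, and every other marker of the 8 at most 5.88 CPM. All 5 proliferation markers were lower by their estimates, and none passed the test. The part of these differences in the results below was not tested, except by the term for Y-linked transcripts where it is given. The 6 mESC markers held 3083 to 3990 CPM in mESCs and 6.62 to 82.3 CPM in MEFs, where Pou5f1 and Zfp42 were at 0 in all libraries, and the fibroblast markers held 7493 to 42152 CPM in MEFs. Of the 8 fibroblast markers, 6 were lower and 2 higher in labelled than in WT MEFs by their estimates, and none passed the test. Prrx1 was at 27.8, 6.16 and 341 CPM in labelled MEFs and at 465 to 573 CPM in WT MEFs.

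All 10 genes were well expressed in both cell types. Among 16064 protein-coding genes, their mean CPM lay between percentile 58.4 (Wac in Atxn7l3-/- mESCs) and percentile 94.6 (Ube2b in MEFs labelled Atxn7l3-/-). Spread between replicates was mostly small. The pooled within-group SD of log2 CPM was 0.14 for Leo1, 0.15 for Ctr9 and Rtf1, 0.17 for Rnf20, Rnf40 and Paf1, 0.20 for Ube2b and 0.23 for Wac. Cdc73 and Ube2a were the loosest, with 0.31 and 0.35, beside a median of 0.31 over 8153 genes of at least 4 log2 CPM.

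**Figure D1:**
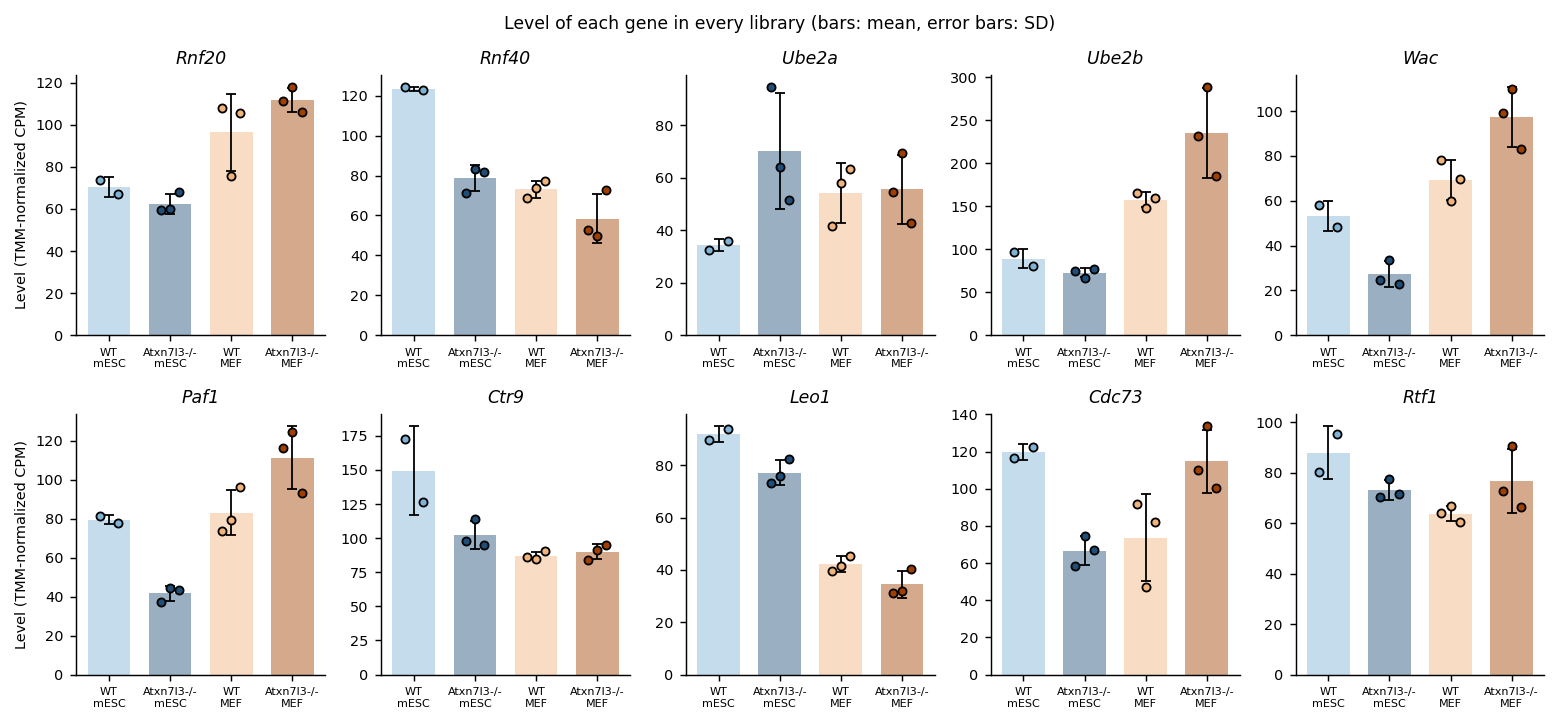
Level of each of the 10 genes (vertical axis, TMM-normalized CPM) in the 4 groups, with 1 point per library, bars at the group mean and error bars of 1 SD (n = 2 for WT mESCs, 3 for the other groups). In mESCs, Paf1, Cdc73 and Wac are lower in every Atxn7l3-/- library than in both WT libraries, whereas in MEFs the libraries labelled Atxn7l3-/- lie above WT for Wac, Cdc73 and Ube2b and overlap WT for Paf1.

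Set per kb of transcript, the order of the genes depended on which length was used, and it is therefore given for both the deposited median transcript length and the longest protein-coding transcript in GENCODE M21. With the deposited length, the levels per kb in WT mESCs ran from Ctr9 (195 ± 42.6 CPM per kb, mean ± SD, n = 2) through Ube2b (161 ± 20.1), Paf1 (132 ± 4.21) and Rtf1 (124 ± 14.8) to Wac (73.5 ± 9.24), Rnf40 (54.7 ± 0.405), Rnf20 (49.0 ± 3.27), Ube2a (48.0 ± 3.29), Leo1 (42.2 ± 1.402) and Cdc73 (41.4 ± 1.45). The neighbours Ctr9 and Ube2b, Paf1 and Rtf1, Rnf20 and Ube2a, and Leo1 and Cdc73 did not differ beyond their spread. With the longest transcript, Ube2b led (49.5 ± 6.18), Leo1 was next (42.2 ± 1.402) and Wac was last (10.2 ± 1.28). In WT MEFs Ube2b led and Paf1 followed with either length, at 286 ± 16.01 and 138 ± 19.4 CPM per kb with the deposited one (n = 3). Leo1 was last there with the deposited length (19.3 ± 1.38) and Cdc73 with the longest transcript (6.36 ± 2.03).

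In mESCs, 2 of the 10 genes passed the test, both of the PAF complex. Paf1 and Cdc73, a scaffold subunit and the subunit known as parafibromin, fell in Atxn7l3-/- cells. DESeq2 called these and also Wac, Ube2a and Rnf40 (adjusted p = 0.0046, 0.011 and 0.014), beside 3436 of 17450 genes that it called in all. Of the 17800 genes tested by edgeR, 6.96% passed, 3.88% as lower and 3.08% as higher. At an unadjusted p under 0.05 there were 6 of the 10, beside 29.8% of all genes. The median log2 fold change of the 10 genes was -0.37, beside 0.04 over all genes tested. Fewer cells of a type and less RNA per cell cannot be told apart in such bulk samples, here and below.

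Paf1 (ENSMUSG00000003437, mm10 chr7:28392951-28399388, plus strand) was at 81.3 and 77.7 CPM in WT mESCs and at 37.4, 44.5 and 43.1 CPM in Atxn7l3-/- mESCs. Every Atxn7l3-/- library was thus below both WT libraries, and the log2 fold change was -0.88 (SE 0.18, 95% interval -1.31 to -0.46, adjusted p = 0.036). Cdc73 (ENSMUSG00000026361, mm10 chr1:143598800-143702893, minus strand), whose exons share 3.86% of their bases with B3galt2 on the opposite strand (at most 28 counts in any library), was at 117 and 123 CPM in WT and at 58.6, 74.7 and 66.9 CPM in Atxn7l3-/-. Its groups were equally separate, with a log2 fold change of -0.80 (SE 0.18, 95% interval -1.21 to -0.38, adjusted p = 0.043). With a correction for GC content it became -0.43 (adjusted p = 0.17).

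The start regions of these 2 genes are shown because they are the members that fell together. Each sequence is the stretch before the start given by RefSeq (GRCm38.p6, the mm10 build), 5′ to 3′ on the gene's strand, without the bases that GENCODE places inside the gene, and capitals mark GC boxes (GGGCGG) and CCAAT boxes (CCAAT) read on either strand.
Paf1, chr7:28392746-28392950, plus strand: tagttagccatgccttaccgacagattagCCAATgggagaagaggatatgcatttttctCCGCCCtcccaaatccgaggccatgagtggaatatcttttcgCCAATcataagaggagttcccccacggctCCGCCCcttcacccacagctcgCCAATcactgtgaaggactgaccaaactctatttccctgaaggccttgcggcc
Cdc73, chr1:143702894-143703143, minus strand: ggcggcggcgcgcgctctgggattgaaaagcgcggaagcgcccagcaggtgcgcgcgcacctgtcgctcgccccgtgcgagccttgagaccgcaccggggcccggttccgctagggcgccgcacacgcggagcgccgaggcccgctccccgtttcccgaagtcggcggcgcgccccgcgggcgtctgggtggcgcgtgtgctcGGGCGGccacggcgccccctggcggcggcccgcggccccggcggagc
The 2 stretches have little in common. In the 250 bases before the start, Paf1 had 3 CCAAT boxes, 2 GC boxes and a GC content of 53.6%, and Cdc73 had 1 GC box, no CCAAT box and a GC content of 80.4%, beside a median of 52.4% over 32851 such windows. A CCAAT box was present in 33.8% of all windows and in 3 of the 10 windows of the 8 members with an entry, and a GC box in 32.7% and in 7 of 10. An E-box (CACGTG), found in 6.02% of all windows, was present in 1 of the 10, at Ube2b, and the NRF1 half-site, the cAMP response element and the YY1 core were in none. Ctr9 and Wac had no entry. The Paf1 stretch lies between the starts of Paf1 and of Med29, which run in opposite directions 243 bases apart. Med29, named here after its values were seen, had a log2 fold change of -0.60 in the same comparison (SE 0.37, adjusted p = 0.31).

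The remaining PAF subunits were lower in Atxn7l3-/- mESCs by less than the test required. Ctr9, the tetratricopeptide scaffold of the complex, was at 172 and 126 CPM in WT and at 98.1, 114 and 95.2 CPM in Atxn7l3-/- (log2 fold change -0.50, SE 0.21, adjusted p = 0.15). The 2 WT values lay further apart than the lower of them lay from the knockout. Leo1 was at 89.7 and 94.1 CPM in WT and at 73.1 to 82.6 CPM in Atxn7l3-/- (-0.20, SE 0.18, adjusted p = 0.48), and Rtf1 at 80.5 and 95.3 CPM in WT and at 70.4 to 77.5 CPM (-0.22, SE 0.18, adjusted p = 0.45).

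The sixth subunit, Wdr61 (also called Ski8 or Skic8), which the PAF complex shares with the cytoplasmic SKI complex, went the other way. It was at 79.2 and 78.8 CPM in WT and at 152, 126 and 173 CPM in Atxn7l3-/- mESCs, and rose with a log2 fold change of 0.98 (SE 0.22, adjusted p = 0.041). That call was kept in 9 of 15 alternatives and lost with the replicate block (0.84, adjusted p = 0.078). Within one complex, then, the transcripts of 2 subunits fell, 1 rose and 3 did not pass the test.

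Among the genes of the ligase, 2 lay close to the threshold. Wac (ENSMUSG00000024283, chromosome 18) was at 58.0 and 48.5 CPM in WT mESCs and at 24.5, 33.8 and 23.1 CPM in Atxn7l3-/- (log2 fold change -0.93, SE 0.23, 95% interval -1.47 to -0.39, adjusted p = 0.054). Rnf40 (ENSMUSG00000030816, mm10 chr7:127588767-127604799), whose 2 overlapping antisense genes held at most 3 counts in any library, was at 124 and 123 CPM in WT and at 71.1, 83.0 and 81.8 CPM in Atxn7l3-/- (-0.60, SE 0.17, 95% interval -1.01 to -0.20, adjusted p = 0.074). In both the groups were separate. Its partner Rnf20 (ENSMUSG00000028309, chr4:49632006-49656887) overlapped, at 73.6 and 67.0 CPM in WT and 59.3, 59.9 and 67.8 CPM in Atxn7l3-/-, with a log2 fold change of -0.12 (SE 0.19, 95% interval -0.56 to 0.31, adjusted p = 0.69) whose sign turned with a correction for GC content (0.04).

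The E2 enzymes differed from each other. Ube2a (ENSMUSG00000016308, chrX:36873900-36884222) was the only one of the 10 with a positive estimate, at 32.6 and 36.0 CPM in WT mESCs and at 94.5, 64.2 and 51.4 CPM in Atxn7l3-/- (log2 fold change 1.08, SE 0.29, 95% interval 0.41 to 1.75, adjusted p = 0.063). Ube2a is X-linked, and the 2 Atxn7l3-/- libraries with almost no Y-linked transcripts were the 2 highest, while the Atxn7l3-/- library that had them stood at 51.4 CPM, also above both WT libraries. Over 680 X-linked genes the median log2 fold change was 0.47, beside 0.04 over all genes. With a term for Y-linked transcripts these medians were -0.30 and -0.03, and Ube2a had a log2 fold change of 0.66 (adjusted p = 0.19). Ube2b (ENSMUSG00000020390, chr11:51985497-52000762), which is autosomal, was at 96.6 and 81.0 CPM in WT and at 74.6, 66.8 and 76.8 CPM in Atxn7l3-/- (-0.24, SE 0.19, adjusted p = 0.45).

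In 9 of the 10 genes, all but Rnf20, the WT and Atxn7l3-/- mESC libraries did not overlap, beside 49.7% of all genes tested (23.0% higher, 26.7% lower). Without WT replicate 1 or WT replicate 2, which leaves a single WT library, none of the 10 passed the test and neither did any gene of the whole table. Without Atxn7l3-/- replicate 1 none of the 10 passed, and 3 genes of the whole table did. Without Atxn7l3-/- replicate 3 Cdc73 lost its call. With the term for Y-linked transcripts, Paf1 and Cdc73 kept their log2 fold changes (-0.81 and -0.76) and missed the threshold (adjusted p = 0.087 and 0.097).

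**Figure D2:**
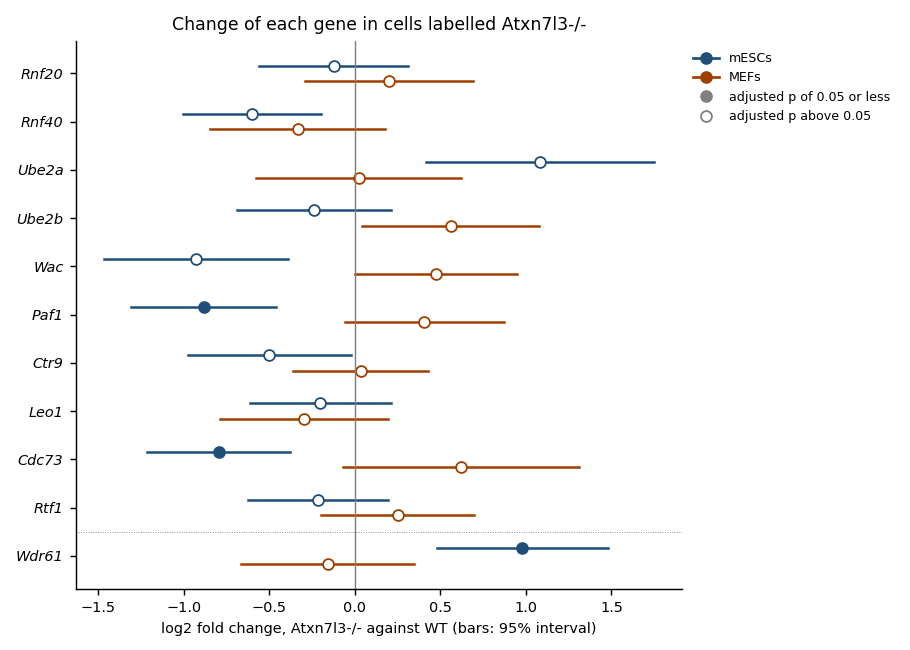
Log2 fold change of each gene in Atxn7l3-/- against WT cells (horizontal axis, bars of the 95% interval) in mESCs and in MEFs as labelled, with Wdr61 under the dotted line. Filled points, those at an adjusted p of 0.05 or less, are Paf1, Cdc73 and Wdr61 in mESCs, and in MEFs there is none (Rnf40, Ube2a and Ctr9 in MEFs and Rnf20 in mESCs change sign under another scaling).

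In MEFs, none of the 10 genes rose or fell in libraries labelled Atxn7l3-/-, whereas 9.41% of 15958 genes did (5.01% higher, 4.39% lower). DESeq2 called none of the 10 either, beside 3936 of 15853 genes that it called in all. At an unadjusted p under 0.05 by edgeR there were 2, beside 32.4% of all genes. The median log2 fold change of the 10 was 0.22, beside -0.06 over all genes. The MEF groups did not overlap for 3 of the 10 genes, beside 39.7% of all genes, and all 3 were higher in the labelled libraries.

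Those 3 genes were Ube2b, Wac and Cdc73. Ube2b was at 165, 148 and 159.7 CPM in WT MEFs and at 232, 289 and 185 CPM in MEFs labelled Atxn7l3-/- (log2 fold change 0.56, SE 0.22, 95% interval 0.045 to 1.08, adjusted p = 0.13). Wac was at 78.1, 60.0 and 69.7 CPM in WT and at 99.2, 109.8 and 83.1 CPM in the labelled libraries (0.47, SE 0.20, 95% interval 0.0013 to 0.95, adjusted p = 0.15). In both genes replicate 3 of the labelled libraries was the one nearest to WT. Cdc73 was at 92.0, 47.2 and 81.9 CPM in WT, where replicate 2 was far below the others, and at 110.1, 134 and 101 CPM in the labelled libraries (0.62, SE 0.29, 95% interval -0.07 to 1.31, adjusted p = 0.19).

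The groups overlapped for the other 7 genes. Paf1 was at 73.7, 79.1 and 96.1 CPM in WT MEFs and at 116, 124 and 93.0 CPM in the labelled libraries (log2 fold change 0.41, SE 0.20, 95% interval -0.06 to 0.87, adjusted p = 0.20). Rnf40 was at 68.6, 73.9 and 77.1 CPM and at 52.8, 49.9 and 72.5 CPM (-0.33, SE 0.22, adjusted p = 0.32), and its estimate became 0.26 with the correction for GC content, so that no direction can be given for it. Rnf20 stood at 75.5 to 108 CPM in WT and at 106 to 118 CPM in the labelled libraries (0.20, 95% interval -0.29 to 0.69). Leo1 (-0.30), Rtf1 (0.25), Ctr9 (0.04) and Ube2a (0.02) had intervals that included 0, and the last 2 changed sign under upper-quartile normalization. With a replicate block by the numbers of the MEF libraries, none of the 10 genes passed the test either.

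The difference between the 2 cell types was tested directly, as the MEF log2 fold change minus that in mESCs in 1 fit of 11 libraries. It passed the test for Paf1 (1.35, SE 0.27, 95% interval 0.75 to 1.96, adjusted p = 0.017), Wac (1.46, SE 0.31, 95% interval 0.77 to 2.15, adjusted p = 0.020) and Cdc73 (1.48, SE 0.36, 95% interval 0.68 to 2.29, adjusted p = 0.031). All 3 were thus lower in Atxn7l3-/- than in WT mESCs and higher in labelled than in WT MEFs by their estimates, although only Paf1 and Cdc73 passed the test within mESCs and none did within MEFs. Among 20063 genes, 5.68% passed this test with a positive and 4.83% with a negative difference. For Wdr61 the difference was negative (-1.07, SE 0.30, adjusted p = 0.047).

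The 3 positive differences depended on few libraries. With a replicate block within each cell type the adjusted p was 0.065 for Paf1, 0.074 for Wac and 0.083 for Cdc73, and for Wdr61 0.11. Without WT mESC replicate 1 or 2, none of the 10 genes passed, and without Atxn7l3-/- mESC replicate 1 only Paf1 did. Cdc73 also lost its call without Atxn7l3-/- mESC replicate 3, without MEF replicate 1 or 2 labelled Atxn7l3-/- and with the correction for GC content (0.81, adjusted p = 0.11). The estimates over all alternatives stayed between 1.26 and 1.81 for Paf1, between 1.34 and 1.70 for Wac and between 0.81 and 1.68 for Cdc73.

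Of the other 7, Ube2b had a difference of 0.87 (adjusted p = 0.077), Ube2a -0.996 (adjusted p = 0.14), Ctr9 0.59 (adjusted p = 0.16) and Rtf1 0.53 (adjusted p = 0.20). Rnf20 (0.39), Rnf40 (0.33) and Leo1 (-0.04, 95% interval -0.61 to 0.53) had wide intervals that included 0, and Rnf40 reached 1.09 (adjusted p = 0.029) with the correction for GC content.

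The WT cells of the 2 types differed in 5 of the 10 genes, beside 55.4% of all 20063 genes tested (27.0% higher in MEFs, 28.5% lower). Cell type cannot be told apart from the table and the culture in this comparison. Leo1, which binds the complex with PAF1, differed most. It was at 89.7 and 94.1 CPM in WT mESCs and at 39.5, 41.6 and 45.4 CPM in WT MEFs, a log2 fold change of -1.12 (SE 0.19, adjusted p = 0.00076). Ctr9 was lower in MEFs as well, with 172 and 126 CPM against 86.3, 85.0 and 90.5 CPM (-0.78, SE 0.19, adjusted p = 0.0060), and so was Rnf40, with 124 and 123 CPM against 68.6 to 77.1 CPM (-0.75, SE 0.20, adjusted p = 0.0097). Cdc73 was lower too (-0.70, SE 0.27, adjusted p = 0.046), a call kept in 6 of 21 alternatives and lost with the replicate block (adjusted p = 0.085) and in 9 of the 11 fits that left out 1 library.

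Ube2b was the 1 gene of the 10 that was higher in WT MEFs, at 165, 148 and 159.7 CPM against 96.6 and 81.0 CPM in WT mESCs (log2 fold change 0.83, SE 0.22, adjusted p = 0.0089). Rnf20 (0.46, adjusted p = 0.081), Ube2a (0.66, adjusted p = 0.092), Wac (0.38, adjusted p = 0.19) and Rtf1 (-0.46, adjusted p = 0.064) did not pass the test, and neither did Paf1 (0.06, 95% interval -0.39 to 0.51), whose sign turned under upper-quartile normalization. With the term for Y-linked transcripts none of the 10 passed. In 9 of the 10 genes, all but Paf1, the groups did not overlap, beside 73.1% of all genes. Without WT mESC replicate 1, Leo1 and Ube2b remained called, and without WT mESC replicate 2, Leo1 and Ctr9.

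Between MEFs labelled Atxn7l3-/- and Atxn7l3-/- mESCs, 6 of the 10 genes differed, beside 61.8% of all genes (29.3% higher, 32.5% lower). Wac was higher in MEFs by 1.84 on the log2 scale (SE 0.22, adjusted p = 5.3e-05), Ube2b by 1.69 (SE 0.20, adjusted p = 5.1e-05) and Paf1 by 1.41 (SE 0.19, adjusted p = 0.00011). Each of these 3 was called in all 21 alternatives, and in 7 of the 10 genes the groups did not overlap, beside 68.2% of all genes. Rnf20 was higher by 0.84 (SE 0.18, adjusted p = 0.0024) and Cdc73 by 0.78 (SE 0.25, adjusted p = 0.017), and Leo1 was lower (-1.16, SE 0.18, adjusted p = 0.00027). The groups compared here share no library with those of the WT comparison. Both comparisons came from the fit of all 11 libraries, however, so that their tests are not independent. Cdc73 was lower in MEFs among WT cells and higher in MEFs among Atxn7l3-/- cells, and that change of side is the tested difference of 1.48 given above. With the correction for GC content Cdc73 was called on neither side (-0.38, adjusted p = 0.16 among WT and 0.43, adjusted p = 0.074 among Atxn7l3-/- cells), and the difference became 0.81 and was not called. Leo1 was lower by nearly the same amount in both.

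**Figure D3:**
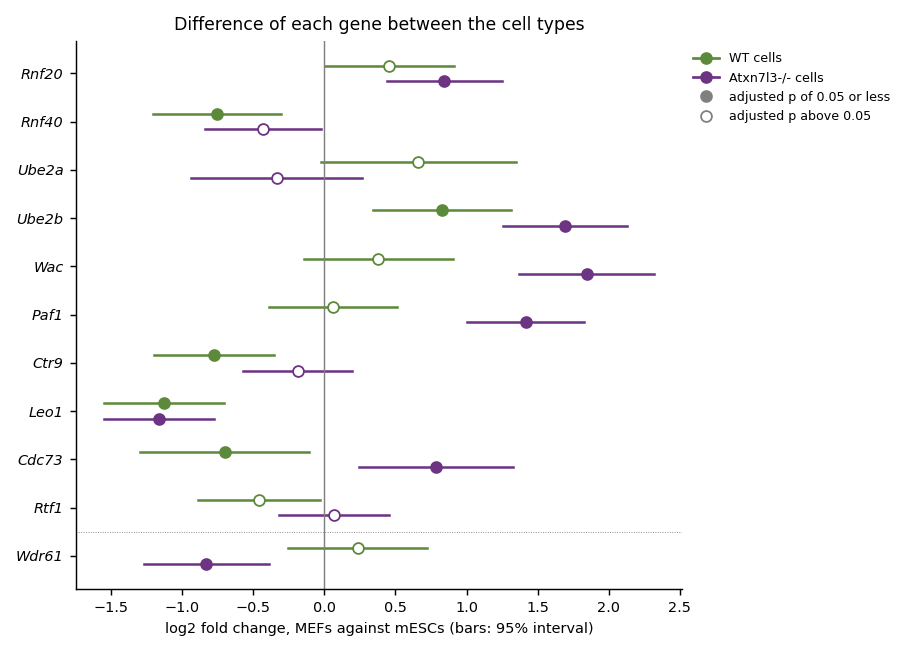
Log2 fold change of each gene in MEFs against mESCs (horizontal axis, bars of the 95% interval), among WT and among Atxn7l3-/- cells as labelled, with Wdr61 under the dotted line. Leo1 lies at -1.12 and -1.16 in the 2 genotypes, whereas Cdc73 lies at -0.70 and 0.78 (filled points mark an adjusted p of 0.05 or less, and Paf1 among WT cells and Rnf40 and Rtf1 among Atxn7l3-/- cells change sign under another scaling).

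Since RNF20 and RNF40 act as a heterodimer, the ratio of their transcript levels per kb was taken within each library, where depth cancels. It was 0.933 and 0.858 in WT mESCs, 1.31, 1.13 and 1.30 in Atxn7l3-/- mESCs, 2.48, 1.61 and 2.16 in WT MEFs and 3.31, 3.72 and 2.30 in MEFs labelled Atxn7l3-/-. No MEF library reached down to the highest mESC library. The mean log2 ratio was 1.32 ± 0.44 in the 6 MEF libraries and 0.13 ± 0.28 in the 5 mESC libraries (mean ± SD), a 2.29-fold difference (2-sided exact permutation test, p = 0.0043, the smallest p this design allows, and 0.043 adjusted over the 10 ratio comparisons made). Within WT cells it was 2.29-fold (exact permutation p = 0.20) and within Atxn7l3-/- cells as labelled 2.45-fold (exact permutation p = 0.10), each the smallest p its design allows. The ratios were not corrected for GC content. With that correction, Rnf20 and Rnf40 had log2 fold changes of 0.54 and 0.41 in MEFs against mESCs among Atxn7l3-/- cells. Without it they were 0.84 and -0.43. Among WT cells they were 0.34 and -0.68 with the correction. Cell type and culture again cannot be told apart.

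Within cell types the designs could not reach 0.05 either. The Rnf20 to Rnf40 ratio was 1.39-fold higher in Atxn7l3-/- than in WT mESCs, with groups that did not overlap (exact permutation p = 0.20, the smallest p that 3 against 2 libraries allow), and 1.49-fold higher in labelled than in WT MEFs, where the groups overlapped (exact permutation p = 0.20, against a smallest possible 0.10). Within the pairs of MEF libraries with the same number it was higher in 3 of 3, by 0.096 to 1.21 on the log2 scale (exact permutation p = 0.25, the smallest p that 3 pairs allow). These group differences are not affected by the choice of length, which multiplies every ratio by the same factor. They were not corrected for GC content. With that correction, the log2 fold changes of Rnf20 and Rnf40 in labelled against WT MEFs were 0.13 and 0.26. Without it they were 0.20 and -0.33, so that no direction can be given for the MEF ratio. In mESCs they were 0.04 and -0.73 with the correction. With the longest transcript, the mean ratio was 0.697 in WT mESCs and 1.62 in WT MEFs, and without length 0.569 and 1.32.

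The Ube2a to Ube2b ratio did not separate the cell types. It was 0.260 and 0.342 in WT mESCs, 0.976, 0.740 and 0.515 in Atxn7l3-/- mESCs, 0.193, 0.303 and 0.304 in WT MEFs and 0.182, 0.184 and 0.178 in MEFs labelled Atxn7l3-/-. Ube2b transcripts thus exceeded Ube2a transcripts per kb in all 11 libraries by the deposited lengths. By the longest transcripts 1 library, Atxn7l3-/- mESC replicate 1, had a ratio of 1.31. Over all libraries the difference of mean log2 ratios, MEFs minus mESCs, was -1.22 (exact permutation p = 0.017, and 0.087 adjusted over the 10 comparisons), and among WT cells it was -0.19 (exact permutation p = 0.80). The Atxn7l3-/- mESC libraries were all above WT (difference 1.27, exact permutation p = 0.20, the smallest possible), and the labelled MEF libraries all below WT (-0.53, exact permutation p = 0.10, the smallest possible). Within the pairs of MEF libraries with the same number it was lower in 3 of 3 (exact permutation p = 0.25, the smallest p that 3 pairs allow).

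**Figure D4:**
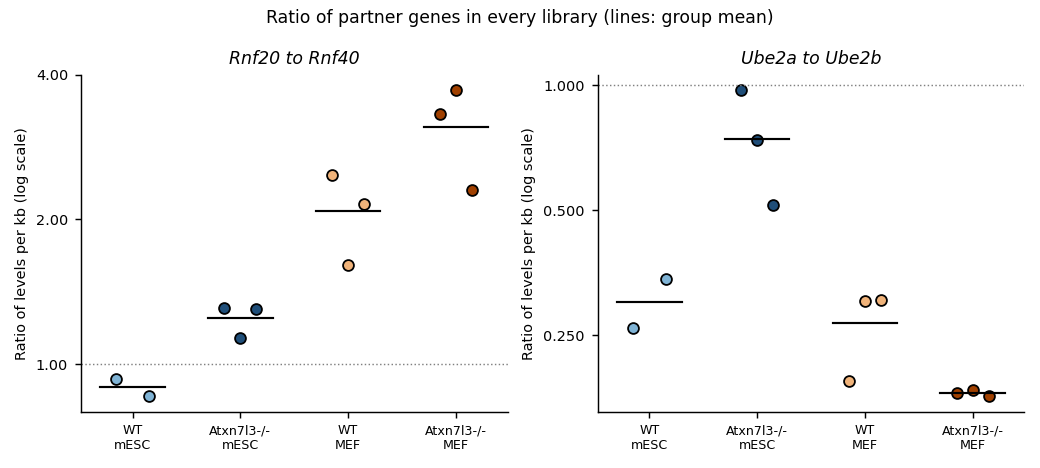
Ratio of levels per kb by the deposited median transcript length (vertical axis, log scale) of Rnf20 to Rnf40 and of Ube2a to Ube2b in each of the 11 libraries, with a line at each group mean and a dotted line at equal levels. The Rnf20 to Rnf40 ratio is at least 1.61 in all 6 MEF libraries and at most 1.31 in all 5 mESC libraries, and the Ube2a to Ube2b ratio is highest in the 3 Atxn7l3-/- mESC libraries.

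Across the 11 libraries, the patterns of the 10 genes were compared by the root mean square (RMS) difference of their centred log2 CPM, as a description. The pairs that ran closest were Rnf40 with Ctr9 (0.22), Ctr9 with Rtf1 (0.26) and Wac with Paf1 (0.26), and those that ran furthest apart were Ube2b with Leo1 (1.26) and Wac with Leo1 (1.25). Among 8152 genes, those most like Rnf20 were Mapre1 (0.064), Wdr48 (0.10) and Brox (0.11), where the median gene lay at 0.69. Those most like Rnf40 were Tyw1 (0.12), Zfp646 (0.13) and Cabin1 (0.14), with a median of 0.70. Rnf20 and Rnf40 lay 0.68 apart, about as far as each lay from the median gene.

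Other genes of the pathway were counted by list, to be read in mESCs beside the 3.08% of all genes called higher, the 3.88% called lower and the 29.8% at an unadjusted p under 0.05. There, the 19 elongation factors included 0 called higher and 3 called lower in Atxn7l3-/- cells, Nelfa (log2 fold change -0.99, adjusted p = 0.033), Cdk12 (-0.95, adjusted p = 0.035) and Supt6 (-0.73, adjusted p = 0.047), with a list median of -0.33. The call of Supt6 was kept in 5 of 15 alternatives and lost in every fit that left out a library. Nelfa missed the threshold with the correction for GC content (adjusted p = 0.052) and with the term for Y-linked transcripts (adjusted p = 0.083). Cdk12 missed it with the replicate block (adjusted p = 0.077). NELFA belongs to the pausing complex, CDK12 is a kinase of the polymerase tail and SPT6 a histone chaperone. Of 14 H3K4 and H3K79 methyltransferase genes, 0 were higher and 2 lower, Setd1b (-1.73, adjusted p = 0.032), an H3K4 methyltransferase, and Mllt6 (-1.31, adjusted p = 0.026), a partner of the H3K79 methyltransferase DOT1L, with a median of -0.24. Setd1b missed the threshold with the term for Y-linked transcripts (adjusted p = 0.053). At an unadjusted p under 0.05 there were 6 of the 19 elongation factors and 4 of the 14 methyltransferase genes, near the 29.8% of all genes. DESeq2 called 5 and 3 of them, all lower, beside 3436 of 17450 genes. Of the 8 genes of the H2B deubiquitinase module, Atxn7l3 itself alone was called (-6.65, adjusted p = 0.021). None of the 6 other proteases described for H2B and none of the 4 genes of the E1 and other partners of the E2 enzymes was called there by edgeR. At an unadjusted p under 0.05 there were 2 and 0, and DESeq2 called 2 and 0, beside 3436 of 17450 genes. The 2 were Usp7 and Usp12, named after their values were seen.

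In MEFs, Usp46, a protease described for H2B, rose in the labelled libraries (log2 fold change 1.41, adjusted p = 0.032), as did Rad18 (1.04, adjusted p = 0.047), an E3 ligase that uses the same E2 enzymes for PCNA. The call of Usp46 was lost with the term for Y-linked transcripts (1.38, adjusted p = 0.11). The call of Rad18 was kept in 5 of 16 alternatives, and lost with the correction for GC content (0.79, adjusted p = 0.13), with the term for Y-linked transcripts (adjusted p = 0.13) and in every fit that left out a library. None of the 14 methyltransferase genes and none of the 19 elongation factors was called by edgeR, beside 9.41% of all genes. At an unadjusted p under 0.05 there were 0 and 1, beside 32.4% of all genes. DESeq2 called 0 and 1 (Chd1), beside 3936 of 15853 genes. The difference between the cell types passed the test for Cdk12 (1.33, adjusted p = 0.041), Chd1 (1.17, adjusted p = 0.044) and Supt6 (1.06, adjusted p = 0.028) among elongation factors, for Mllt6 (1.58, adjusted p = 0.019) among methyltransferase genes, and for Usp12 (1.87, adjusted p = 0.042), Usp46 (1.66, adjusted p = 0.038) and Usp44 (-4.19, adjusted p = 0.046) among the proteases, beside 5.68% of all genes with a positive and 4.83% with a negative difference called. With the replicate block only Usp44 of these 7 passed (adjusted p = 0.028), and the others lay between 0.058 (Mllt6) and 0.11 (Chd1). With the term for Y-linked transcripts none of the 7 passed, with adjusted p between 0.053 (Mllt6) and 0.17 (Usp46). With the correction for GC content, Cdk12 and Chd1 missed the threshold (adjusted p = 0.052 and 0.11). Usp44 was at most 1.099 CPM in any MEF library.

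Between WT MEFs and WT mESCs, 12 of the 19 elongation factors and 11 of the 14 methyltransferase genes were lower in MEFs and none of either list was higher, beside 28.5% of all genes lower. Their medians were -1.02 and -1.44, beside -0.03 over all genes and -0.20 over the 10 members. Supt16 (-2.03, adjusted p = 2.8e-05), a subunit of the FACT chaperone, Mllt6 (-3.01, adjusted p = 1.2e-05), and Ash2l (-2.73, adjusted p = 9.8e-06) and Wdr5 (-2.59, adjusted p = 2.3e-05), core subunits of the H3K4 methyltransferase complexes, were among them. Between MEFs labelled Atxn7l3-/- and Atxn7l3-/- mESCs, 7 of the 19 elongation factors and 9 of the 14 methyltransferase genes were lower and 1 of each was higher, beside 32.5% lower and 29.3% higher of all genes. The 5 PAF members and the 5 genes of the ligase and its E2 enzymes had medians of 0.07 and 0.84 there, and of -0.70 and 0.46 among WT cells.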

How the data were processed

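Poly(A)+ RNA had been sequenced from stranded TruSeq libraries of 5 mESC and 6 MEF lines. Per the study's methods and processing notes, the authors aligned reads to mm10 with STAR 2.5.3a and counted them per gene with HTSeq 0.6.1p1, and normalized with DESeq2 1.16.1. The deposited tables, 1 per cell type, held raw counts, which were used here, and 2 further columns per library of normalized signal, counts divided by size factors with and without median transcript length, of which only the length was used. Fold changes and p-values of the authors' own comparisons were not used. Strand use in counting is not given in the sources used here. A further WT mESC library that the study left out was not analysed here.

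The tables were joined by gene ID, and a gene listed in 1 table was set to 0 in the other. edgeR 4.0.16 (R 4.3.3) was run with TMM, filterByExpr and glmQLFTest on each cell type for the knockout, and on all 11 libraries for the difference and for cell types, and genes were called at a Benjamini-Hochberg adjusted p of 0.05. All 10 members, Atxn7l3 and Wdr61 were named, and of each other list at most the 3 largest changes among genes called. Members and lists were chosen with earlier results of these data known. The ratios of partners were compared by exact permutation tests, 2-sided. Motifs were searched on both strands in RefSeq windows (GRCm38.p6) of 8 of the 10 members. GC contents and lengths came from GENCODE M21. Alternatives were RLE and upper-quartile normalization, other filters, DESeq2 1.42.0, a replicate block, a correction for GC content (lowess, span 0.3), other sets of libraries, leaving out each library and, added after seeing the data, a term for Y-linked transcripts, another transcript length and pairs of MEF libraries in the ratio tests. Same-numbered MEF libraries of the 2 genotypes deviated together (r = 0.473, 0.161 and 0.240 over genes), and the numbers were used as pairs there. With 3 libraries per group these values cannot establish that the libraries were paired. The numbers come from the labels alone and each line had its own embryo. Scripts were tested on simulated data.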

Additional observations from a re-analysis of the deposited data

Results flagged for a closer look

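The effect of the Atxn7l3-/- label differed between MEFs and mESCs, by the test of that difference, for 4 of the 11 PAF and ligase genes examined (the 10 genes and Wdr61). Among all 20063 genes, 5.68% passed this test with a positive and 4.83% with a negative difference. The log2 fold change in MEFs minus that in mESCs was 1.35 for Paf1, 1.46 for Wac, 1.48 for Cdc73 and -1.07 for Wdr61. For Paf1, Wac and Cdc73 the mESC estimate was negative (-0.88, -0.93 and -0.80) and the MEF estimate positive (0.41, 0.47 and 0.62), and for Wdr61 it was the reverse (0.98 and -0.16). With the replicate block none of the 4 passed (adjusted p 0.065, 0.074, 0.083 and 0.11, edgeR), nor with the term for Y-linked transcripts (adjusted p 0.073, 0.070, 0.12 and 0.078). The sign of the difference was kept in all 20 alternatives for each of the 4.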

How the results depend on the processing

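The number of the 10 genes called changed with the processing. In mESCs it was 2, and became 4 without a filter on low counts, 5 with DESeq2, 1 (Ube2a) with the replicate block, 1 in 1 fit of all 11 libraries and 0 with the term for Y-linked transcripts, and ranged from 0 to 3 over the libraries left out. For the difference between cell types it was 3, and became 0 with the replicate block, 1 with GC correction and block together and 0 with the Y-linked term (0 to 4 over libraries left out). Between WT cells it was 5, and became 3 without a filter and 0 with the Y-linked term (2 to 5 over libraries left out), and between Atxn7l3-/- cells it was 6 and became 3 with the Y-linked term (5 to 7). In MEFs it was 0 under all 16 alternatives. A lone WT mESC library was taken to vary like the other group. Same-numbered mESC libraries had r = 0.00777 and -0.172. The deviations of the 2 WT mESC libraries from their mean mirror each other, so these values cannot show whether the numbers pair libraries. In MEFs and between Atxn7l3-/- cells the block changed no call of the 10 genes, and between WT cells only that of Cdc73. The cause of these losses was not tested.

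Estimates that changed sign were all uncalled. They were Rnf20 in mESCs (0.039 with GC correction, 0.023 with the Y-linked term), Rnf40 in MEFs (0.26 with GC correction, 0.25 with the block added), Ube2a in MEFs (-0.090 with upper-quartile normalization, -0.043 with 10 counts in every library, -0.16 to 0.19 over libraries left out) and Ctr9 in MEFs (-0.074, -0.028, -0.10 with GC correction, -0.11 with the block added). Wdr61 in MEFs ranged from -0.23 to 0.034 over libraries left out. The Leo1 difference between cell types became 0.0041 with the block and 0.094 with GC correction added (-0.17 to 0.035 over libraries left out). Paf1 between WT cells became -0.058 with upper-quartile normalization and -0.0073 with GC correction and block (-0.049 to 0.14 over libraries left out). Between Atxn7l3-/- cells Rnf40 became 0.41 with GC correction, with or without the block, and Rtf1 -0.13 with upper-quartile normalization, -0.081 with 10 counts in every library, -0.26 with GC correction, -0.27 with the block added and -0.058 with the Y-linked term (-0.069 to 0.16 over libraries left out).

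The mean ratios per kb moved with the length used. Without length and with the longest transcript, Rnf20 to Rnf40 was 0.569 and 0.697 in WT mESCs and 1.32 and 1.62 in WT MEFs, and Ube2a to Ube2b was 0.391 and 0.404 in WT mESCs and 0.347 and 0.359 in WT MEFs.

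Over all genes, the mESC count of 1238 became 2995 without a filter, 3436 with DESeq2 and 464 in 1 fit (0 to 2242 over libraries left out). The MEF count of 1501 became 846 with 10 counts in every library, 3936 with DESeq2, 3557 in 1 fit and 253 with the Y-linked term (197 to 2038 over libraries left out). The count of the difference, 2108, became 4280 with DESeq2, 1268 with the block, 1331 with GC correction added and 437 with the Y-linked term (238 to 3049 over libraries left out). Between cell types, 11123 (WT) and 12408 (Atxn7l3-/-) became 6455 and 7219 with 10 counts in every library and 3387 and 4546 with the Y-linked term, and the WT count 7091 without WT mESC replicate 2. With GC correction, 1040 genes were higher and 563 lower in labelled MEFs, against 800 and 701, and 1209 and 541 for the difference, against 1139 and 969. Upper-quartile normalization shifted the median of all genes from -0.06 to -0.17 in MEFs and from -0.13 to -0.33 between Atxn7l3-/- cells.

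Each group held 2 or 3 lines, 2 for WT mESCs, and with at least 956 counts per gene the precision was set by the spread between lines and not by depth.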
